A study of Mus musculus with 6 samples.

Results

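The chemokine ligands examined here are secreted or membrane-tethered small proteins that guide leukocytes and microglia, and their genes were taken by name from the gene table: Ccl2, Ccl3, Ccl5, Ccl6, Ccl9, Ccl12, Cxcl10, Cxcl16 and Cx3cl1. The list named 10 genes, 9 of them were found among the 18263 genes of the table, and Ccl4 was not analysed here. The RNA came from whole hippocampus of 6-month-old mice, in 6 libraries of 1 mouse each by the design text, 3 of them 5xFAD and 3 WT. The 5xFAD mouse carries a human APP transgene with the Swedish, Florida and London mutations among its transgenes, which the study places on a C57BL/6J background with APP driven by the neuronal Thy-1 promoter. The sources used here do not give the sex of the 6-month-old mice. The question was which chemokine transcripts differed between the 5xFAD and the WT hippocampus.

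Chemokines are named for the spacing of their first cysteines. In the CC class these are adjacent, in the CXC class 1 other residue stands between them, and in the CX3C class, whose member is fractalkine (Cx3cl1), 3 do. The soluble ligands bind G protein-coupled receptors on leukocytes and microglia and set the direction in which those cells move. In brain the family is known for neuronal Cx3cl1, which signals to microglia through Cx3cr1, and for ligands that microglia and astrocytes make under inflammatory stimuli, such as Ccl2, Ccl3, Ccl5 and Cxcl10.

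The coding bases around these cysteines are shown because they set the classes apart. They are read from GENCODE M21 transcripts on the GRCm38 assembly, 30 bases each, 5′ to 3′, with the cysteine codons in capitals. There are 0 bases between the capitals in the 5 CC genes shown, 3 in the CXC genes and 9 in Cx3cl1.
Ccl2: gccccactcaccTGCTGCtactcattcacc
Ccl5: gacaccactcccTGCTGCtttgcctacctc
Ccl6: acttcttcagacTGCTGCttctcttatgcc
Ccl9: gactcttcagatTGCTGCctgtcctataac
Ccl12: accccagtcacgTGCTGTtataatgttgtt
Cxcl10: acggtccgcTGCaacTGCatccatatcgat
Cxcl16: gctggaagtTGTtctTGTgatcgtaccatt
Cx3cl1: acgaaaTGCgaaatcatgTGCgacaagatg
The CC genes shown use the same pair of codons except Ccl12, whose next cysteine codon differs, and Cxcl16 uses the other cysteine codon at both positions.

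On mm10, which is GRCm38, the genes lie on 3 chromosomes. Ccl5 (chr11:83525778-83530518), Ccl9 (chr11:83572919-83578636), Ccl6 (chr11:83587882-83593087) and Ccl3 (chr11:83647844-83649355), all on the minus strand, stand together within 123.58 kb. Ccl2 (chr11:82035571-82037453) and Ccl12 (chr11:82101845-82103400), both on the plus strand, are 64.39 kb apart and form another cluster on the same chromosome. Cxcl16 (chr11:70453983-70459984, minus strand) lies apart from both clusters, Cxcl10 (chr5:92346638-92348889, minus strand) is on chromosome 5 and Cx3cl1 (chr8:94772009-94782427, plus strand) on chromosome 8. The annotation places another gene on the opposite strand over part of Ccl2, Ccl6, Cxcl10 and Cxcl16. The sources used here do not say whether the counting used strand, so reads of such a pair cannot be told apart where the 2 overlap.

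The libraries held 8450009 to 12577839 counts over genes. WT replicate 3 stood apart: its Spearman correlation with the others was 0.916 to 0.931, against 0.976 to 0.986 among the others. Its deviation from the mean of the other libraries, 5xFAD and WT together, followed the GC content of genes (rho -0.62 across genes, which are not independent). Calls and directions of the ligands that rest on this library are given with and without it. Levels are given as counts, or as counts per 1000000 (CPM) of the library size after edgeR's TMM scaling. A gene was called when its Benjamini-Hochberg adjusted p over all 12952 genes tested, from edgeR's quasi-likelihood test, was under 0.05. By that rule 85 genes were higher in 5xFAD, or 0.656% of those tested, and 0 were lower. At an unadjusted p under 0.05, 231 genes were lower, and DESeq2 called 4 lower. The 10 listed neuronal marker genes, which bear on the tissue label, summed to 16444 to 17554 CPM in 5xFAD and 10684 to 19878 CPM in WT. The lowest WT sum was that of replicate 3, and the other WT libraries, from 17731 CPM up, lay above all 5xFAD libraries.

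In the 5xFAD hippocampus Ccl3 and Ccl6 rose by factors of 49.6 and 21.3 in the fit. Cxcl10 had counts in every 5xFAD library and none in any WT library, Ccl5 was higher in all 5xFAD libraries without passing the test, and Cx3cl1, the most abundant ligand, differed by less than its spread. Ccl2, Ccl9, Ccl12 and Cxcl16 were at 0 to 12 counts in every library, and their groups overlapped. Of the 9 genes, 4 had enough counts for the test (Ccl3, Ccl6, Ccl5 and Cx3cl1), and 2 of these 4 were called higher, where 0.656% of all genes tested were. Ccl3, Ccl5 and Ccl6 had fewer than 10 counts in every WT library and passed the filter on low counts only through the 5xFAD libraries, where they are high, so nothing is read from 2 of 4 as a share. The 5xFAD libraries lay wholly above the WT libraries in 4 of the 9 genes (Ccl3, Ccl5, Ccl6 and Cxcl10), where 7.19% of the 17559 genes with any count did so.

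**Figure D1:**
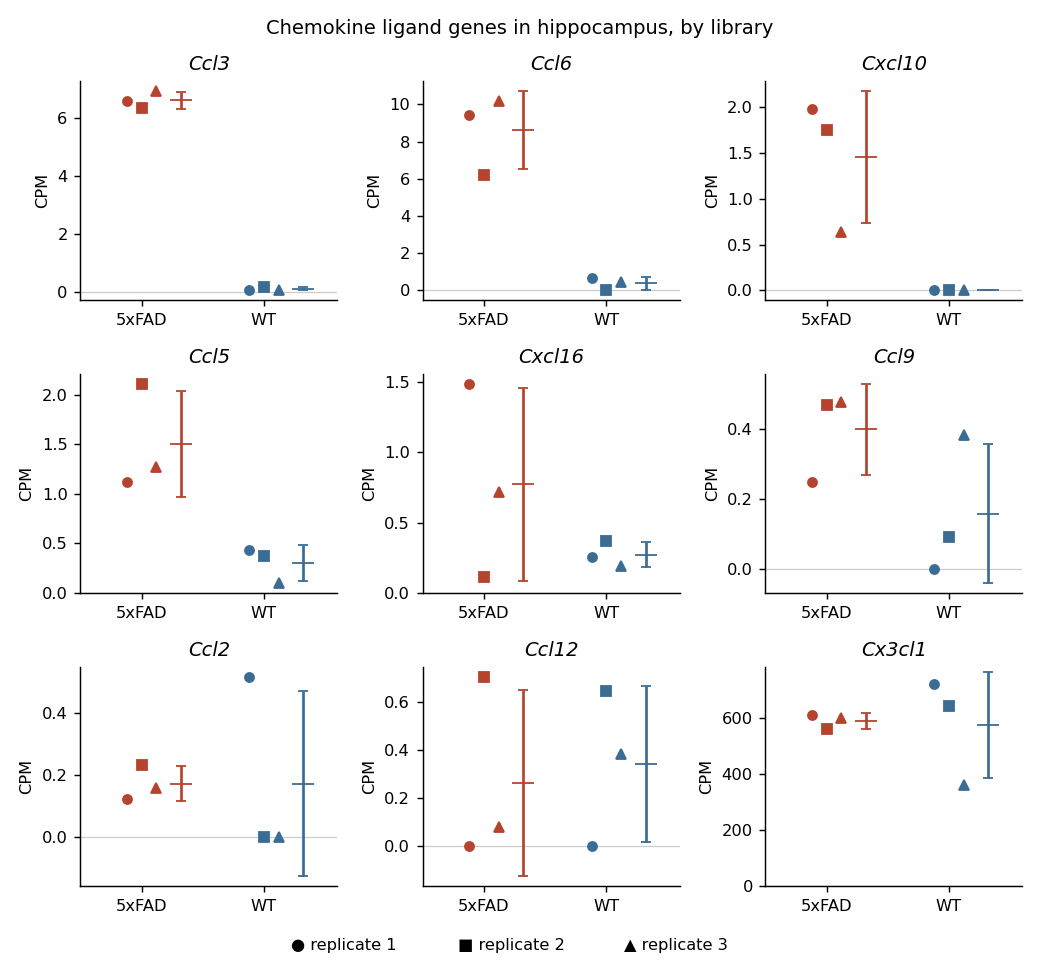
CPM of the 9 chemokine ligand genes in each library, with 5xFAD on the left and WT on the right of each panel; marker shape gives the replicate and the bar beside the points the mean ± SD (n = 3 each), and each panel has its own axis. Ccl3, Ccl6, Cxcl10 and Ccl5 show no overlap between the groups, while the spread of Cx3cl1 in WT comes with replicate 3 at 362 CPM.

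Ccl3 encodes macrophage inflammatory protein 1 alpha, a ligand of Ccr1 made by activated microglia and macrophages. It had 53, 54 and 87 counts in the 5xFAD libraries, against 1, 2 and 1 in the WT libraries. In CPM these were 6.57, 6.33 and 6.92 in 5xFAD, against 0.0865, 0.184 and 0.0953 in WT. The 3 5xFAD libraries thus lay within a narrow band far above WT, where the gene was close to the limit of counting. The log2 difference was 5.63 ± 0.50 (SE; 95% interval 4.50 to 6.77; adjusted p = 0.00203, edgeR quasi-likelihood). The ratio of summed counts scaled to library size was 54.8, with an exact 95% binomial interval of 21.05 to 203 that covers counting error only. Ccl3 kept its call in all 16 alternative fits, with adjusted p-values of 1.4e-18 to 0.031, and its log2 difference was 5.51 (adjusted p = 1.44e-05) without WT replicate 3.

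Ccl6 is a rodent CC chemokine that macrophages and microglia express and that binds Ccr1. Its counts were 76, 53 and 128 in the 5xFAD libraries and 8, 0 and 5 in the WT libraries. This is 9.42, 6.21 and 10.2 CPM in 5xFAD, against 0.692, 0 and 0.476 CPM in WT. All 5xFAD libraries were above all WT libraries, and the spread within 5xFAD was wider than for Ccl3. The log2 difference was 4.41 ± 0.68 (SE; 95% interval 2.87 to 5.96; adjusted p = 0.0246, edgeR quasi-likelihood), and the ratio of summed counts was 22.3 (12.8 to 42.5, exact binomial). The call did not hold without WT replicate 1 (adjusted p = 0.0574) or without any 1 of the 5xFAD replicates (0.0924 to 0.196), while the log2 difference stayed between 4.27 and 5.12 in those fits. Without WT replicate 3 it was 4.56 (adjusted p = 0.000172). A non-coding transcript lies on the opposite strand over part of Ccl6.

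Ccl9, the gene next to Ccl6 and another rodent ligand of Ccr1, was far lower. It had 2, 4 and 6 counts in 5xFAD and 0, 1 and 4 in WT, and the groups overlapped through WT replicate 3. The ratio of summed counts was 2.71 with an exact interval of 0.889 to 9.82, so at 12 and 5 counts in all a difference was not detectable at this depth.

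Ccl5, at the other end of this cluster, encodes RANTES, a ligand of Ccr1 and Ccr3 known from T cells and, in brain, from glia. It had 9, 18 and 16 counts in 5xFAD, against 5, 4 and 1 in WT. That is 1.11, 2.11 and 1.27 CPM in 5xFAD, against 0.433, 0.367 and 0.0953 CPM in WT. Every 5xFAD library was above every WT library. The log2 difference of 2.26 ± 0.67 (SE; 95% interval 0.76 to 3.77) had an adjusted p of 0.359 with edgeR's quasi-likelihood test and was not called. The ratio of summed counts was 4.86 (2.40 to 10.8, exact binomial), and edgeR's likelihood ratio and exact tests, which allow less for uncertainty in the spread between libraries, gave adjusted p-values of 0.0278 and 0.0409.

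**Figure D2:**
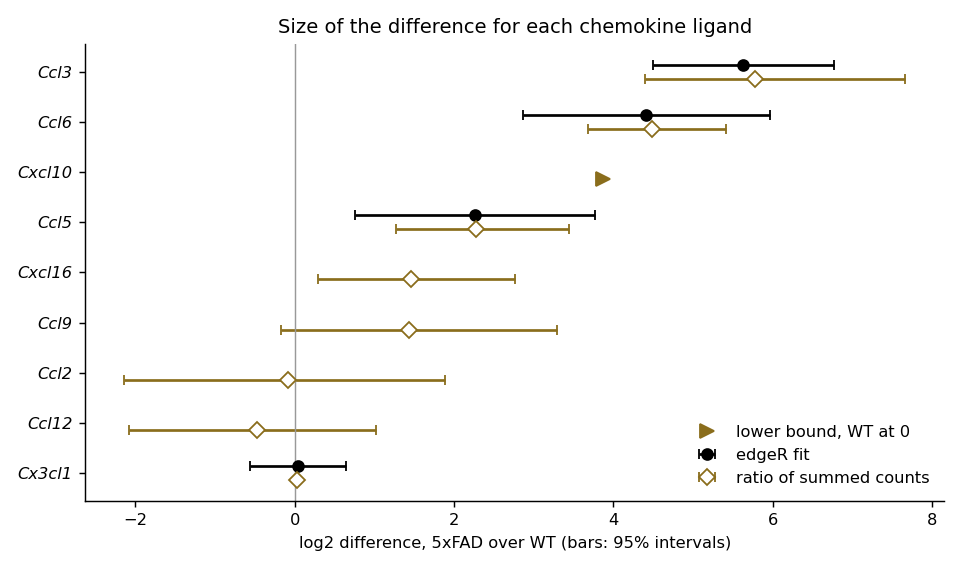
Log2 difference of each chemokine ligand, 5xFAD over WT, on the x axis. Filled circles are the edgeR fit for the 4 genes tested and open diamonds the ratio of summed counts. Bars are the 95% intervals, which for the diamonds cover counting error only. The triangle, labelled a lower bound, is Cxcl10 with WT set at a floor of 3 counts, and it has no interval. Ccl3 and Ccl6 lie at 5.63 and 4.41, and the edgeR interval of Cx3cl1 spans 0.

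Ccl2, the main attractant of Ccr2-bearing monocytes, did not separate the groups. It had 1, 2 and 2 counts in 5xFAD and 6, 0 and 0 in WT. The 6 counts of WT replicate 1 were the highest value, and the ratio of summed counts was 0.941 (0.227 to 3.70, exact binomial). Ccl12, a mouse ligand of Ccr2 in the same cluster, had 0, 6 and 1 counts in 5xFAD and 0, 7 and 4 in WT. Both groups held a library at 0, and the ratio was 0.719 (0.236 to 2.03). Intervals this wide leave room for a change of either direction.

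Cxcl10 encodes an interferon-induced ligand of Cxcr3 that draws activated T cells. It had 16, 15 and 8 counts in 5xFAD and 0, 0 and 0 in WT. Its CPM in 5xFAD were 1.98, 1.76 and 0.637. All 3 5xFAD libraries thus stood above WT, where no count was seen. With the WT group set at a floor of 3 counts, the 39 counts of the 5xFAD group were 14.7-fold higher. That value takes the 39 counts as free of error and leaves out the spread between mice, so it is not a 95% bound. The gene did not pass the filter on low counts and so had no test in the main fit. With no filter its adjusted p was 0.0778 by edgeR's quasi-likelihood test (2 of the 9 genes were then called higher, against 0.621% of all genes). With DESeq2 its adjusted p was 0.00209 (3 of the 9 called higher, against 1.31% of all genes). In other quasi-likelihood fits the gene passed the filter. Its adjusted p was then 0.0331 without WT replicate 3, and 0.129 with a filter of CPM above 1 in at least 2 libraries. Without 5xFAD replicate 3, WT replicate 1 or WT replicate 2 it was 0.224, 0.261 and 0.227. The call of Cxcl10 thus depended on the fit. Its neighbour on the opposite strand, Art3, had 11, 13 and 5 counts in 5xFAD and 11, 8 and 7 in WT, with overlapping groups.

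Cxcl16 encodes a transmembrane ligand of Cxcr6 that is also shed. Its counts were 12, 1 and 9 in 5xFAD and 3, 4 and 2 in WT. 5xFAD replicate 2 lay below every WT library, while the other two lay above them. The ratio of summed counts was 2.76 (1.22 to 6.81), an interval that covers counting error and not the spread between mice, and with no filter the quasi-likelihood test gave an adjusted p of 0.810. Zmynd15, which overlaps Cxcl16 on the opposite strand, had 17, 6 and 30 counts in 5xFAD and 7, 8 and 0 in WT, and its part in the Cxcl16 counts was not tested.

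Cx3cl1 encodes fractalkine, which neurons carry on their membrane and release after cleavage by the proteases Adam10 and Adam17. It had 610, 559 and 599 CPM in 5xFAD, against 720, 642 and 362 CPM in WT. The 5xFAD libraries were close together and lay between the low WT replicate 3 and the other WT libraries. The log2 difference was 0.04 ± 0.27 (SE; 95% interval -0.56 to 0.64; adjusted p = 0.974, edgeR quasi-likelihood). The direction turned without WT replicate 3, to -0.20 ± 0.09 (adjusted p = 0.277), and with a correction for GC content, to -0.16 (adjusted p = 0.855). Neither was called. The deviation of WT replicate 3 follows GC content, and the exons of Cx3cl1 are 57.1% G and C, the highest share among the 9 genes. Whether GC content set the Cx3cl1 value of that library was not tested.

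Levels of different genes were compared per kb of exon. In 5xFAD the order ran Cx3cl1 at 149.9 ± 6.9 CPM per kb, Ccl3 at 8.63 ± 0.39, Ccl6 at 4.79 ± 1.17 and Ccl5 at 1.56 ± 0.56 (SD, n = 3). Each of these lay wholly below the one before it, and Cxcl10 followed at 0.648 ± 0.320, wholly below Ccl5. From Cxcl10 down to Ccl9, at 0.131 ± 0.043, each gene overlapped the one above it. In WT Cx3cl1 stood at 146.2 ± 47.9 CPM per kb (SD, n = 3), and each of the genes that followed, led by Ccl12 at 0.636 ± 0.602, was below 1.20 in every library, with neighbours overlapping in all cases. Ccl3 was thus second in 5xFAD, while in WT it did not differ beyond the spread from the genes beside it. Cx3cl1 made up 86.2% to 87.6% of all counts of listed chemokine ligand genes in the 5xFAD libraries and 83.3% to 90.4% in the WT libraries. The other 8 genes together had 169, 153 and 257 counts in 5xFAD and 23, 18 and 17 in WT.

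Among the receptors the ligands use, Cx3cr1 was the abundant one. It had 2224, 1832 and 2607 counts in 5xFAD, against 1160, 1286 and 362 in WT, and its groups did not overlap. The log2 difference was 1.46 ± 0.39 (SE), with an adjusted p of 0.282 by edgeR's quasi-likelihood test. Without WT replicate 3, whose value was the lowest, it was smaller, at 1.09 ± 0.12, and was called (adjusted p = 2.11e-05). Cxcr4, the receptor of Cxcl12, had 23, 12 and 24 counts in 5xFAD and 9, 3 and 2 in WT (log2 difference 2.25 ± 0.65, adjusted p = 0.355). The receptors of most other ligands were near the limit of counting. Ccr1 had 1, 0 and 6 counts in 5xFAD and 1, 4 and 0 in WT. Ccr2 had 0, 0 and 6 counts in 5xFAD and 0, 0 and 2 in WT. Cxcr3, the receptor of Cxcl10, had 1, 0 and 0 counts in 5xFAD and 8, 0 and 1 in WT, and Cxcr6 had 1, 1 and 0 in 5xFAD and none in WT. Of 24 listed receptors, 19 were in the table and 5 were tested, with 0 called by edgeR's quasi-likelihood test, 2 at an unadjusted p under 0.05 and 1 by DESeq2. Ackr2 and Ackr3, scavenger receptors that were also tested, had log2 differences of -0.88 ± 0.61 (adjusted p = 0.811) and 0.08 ± 0.28 (adjusted p = 0.949).

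Most of the other chemokine ligand genes were too low to test. Of 29 listed, 25 were in the table, 4 of these had no count in any library, and 3 were tested. None of the 3 was called by edgeR's quasi-likelihood test or by DESeq2, and 0 had an unadjusted p under 0.05. Cxcl12, a ligand made by vessels and some neurons, had 426, 386 and 534 counts in 5xFAD and 546, 534 and 429 in WT (log2 difference 0.03 ± 0.18, adjusted p = 0.965). Ccl27a and Ccl28 had log2 differences of -0.32 ± 0.25 (adjusted p = 0.818) and -0.44 ± 0.54 (adjusted p = 0.868), and the value of Ccl27a is uncertain because near-identical copies of the gene exist. Cxcl9, which like Cxcl10 is interferon-induced and binds Cxcr3, had 6, 13 and 6 counts in 5xFAD and 1, 0 and 0 in WT and was not tested for low counts; it is named here because it was the one gene of this list whose groups did not overlap, a choice made after its values were seen. Its ratio of summed counts was 28.2 (4.62 to 1159, exact binomial), and with no filter its adjusted p was 0.336 by the quasi-likelihood test. Cxcl5, a ligand that draws neutrophils and also chosen after its values were seen, had 3, 2 and 21 counts in 5xFAD and 0, 6 and 1 in WT, a ratio of 4.20 (1.77 to 11.5) that 5xFAD replicate 3 carried.

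Cytokines that induce chemokines were barely counted, and 1 transcription factor gene was called. Tnf, Il1b and Ifng had at most 4 counts in any library. Irf8, a factor that microglia depend on, had 178, 169 and 307 counts in 5xFAD, against 16, 42 and 42 in WT. Its log2 difference was 2.84 ± 0.39 (SE; adjusted p = 0.0134, edgeR quasi-likelihood). Irf1, an interferon-responsive factor, followed at 1.495 ± 0.297 (adjusted p = 0.0834), then the receptor genes Tnfrsf1a at 1.13 ± 0.26 (adjusted p = 0.156) and Tnfrsf1b at 1.62 ± 0.39 (adjusted p = 0.181), and Stat2, of the interferon pathway, at 0.78 ± 0.19 (adjusted p = 0.190). Of 33 listed inducers and regulators, 32 were in the table and 25 tested. The called count was 1 of 25 (Irf8), where 0.656% of all genes tested were called higher. Of the 25, 11 had an unadjusted p under 0.05, each of them higher in 5xFAD. At that threshold 585 of the 12952 genes tested were higher and 231 lower. The called count was 7 with DESeq2, which called 199 genes higher in all, and 7 without WT replicate 3, where 320 were called higher in all. It was 0 without any 1 of the 5xFAD replicates.

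Downstream of the receptors, Dock2 and Pik3cg rose. Dock2, a Rac activator that leukocytes need to migrate toward chemokines, had 196, 215 and 276 counts in 5xFAD, against 64, 65 and 46 in WT (log2 difference 2.16 ± 0.24, adjusted p = 0.00579, edgeR quasi-likelihood). Pik3cg, the catalytic subunit of the PI3-kinase that G protein beta-gamma subunits switch on, had 78, 91 and 135 counts in 5xFAD, against 27, 34 and 22 in WT (2.04 ± 0.31, adjusted p = 0.0210). These were 2 of 17 signalling genes tested, where 0.656% of all genes tested were called higher. Pik3r5, Plcb2 and Rac2 had adjusted p-values of 0.252, 0.269 and 0.636 and log2 differences of 1.22, 1.48 and 1.36. The cleaving proteases of Cx3cl1 and Cxcl16 were not called. Adam10 had 379, 319 and 492 counts in 5xFAD and 363, 410 and 801 in WT (-0.23 ± 0.32, adjusted p = 0.875), and Adam17 had 11, 15 and 22 in 5xFAD and 9, 21 and 31 in WT (-0.20 ± 0.55, adjusted p = 0.935).

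Transcripts of microglia, and Gfap of astrocytes, were higher in the same libraries. The 10 listed microglial genes summed to 517 to 575 CPM in 5xFAD and to 164 to 225 CPM in WT. On average Cx3cr1, given above as a receptor, carried the largest part, at a mean of 233 CPM in 5xFAD and 84.3 CPM in WT. All 9 tested genes were at a positive log2 difference and 2 were called (C1qa and Itgam), where 0.656% of all genes tested were. The groups overlapped for Aif1 and Fcrls, at log2 differences of 0.76 ± 0.52 and 1.39 ± 0.54 (adjusted p = 0.811 and 0.692, edgeR quasi-likelihood). They also overlapped for Csf1r, at only 12 counts in 5xFAD and 11 in WT. The listed genes of activated microglia summed to 892 to 968 CPM in 5xFAD and 193 to 271 CPM in WT. Of the 9 tested, 5 were called, where 0.656% of all genes tested were, and all 9 were at a positive log2 difference. Ctsd carried the largest part of these sums, at a mean of 578 CPM in 5xFAD and 146 CPM in WT. In the same list the groups overlapped for Lpl and Spp1, at log2 differences of 0.44 ± 0.52 and 0.03 ± 0.56 (adjusted p = 0.863 and 0.989, edgeR quasi-likelihood). Astrocyte genes, from the other glia that make some of these ligands, summed to 6577 to 7457 CPM in 5xFAD and 5841 to 5933 CPM in WT. Of the 7 tested, 1 was called, where 0.656% of all genes tested were. That gene was Gfap, the intermediate filament of astrocytes, at 12078, 12551 and 21804 counts in 5xFAD, against 3682, 3124 and 3461 in WT (log2 difference 2.33 ± 0.21, adjusted p = 0.00203, edgeR quasi-likelihood). Gfap carried the rise of the sum, with a difference of means of 1256 CPM. It was the only 1 of the 7 whose groups did not overlap, and 4 of the 7 had a positive log2 difference. Slc1a2, the most abundant of the list, had a difference of means of -258 CPM. In bulk tissue more cells of a type and more RNA per cell cannot be told apart. Per 1000 CPM of the microglial list, Ccl3 was at 11.4, 12.3 and 12.8 CPM in 5xFAD, against 0.417, 0.816 and 0.582 CPM in WT. Ccl6 was at 16.38, 12.03 and 18.86 CPM in 5xFAD and 3.34, 0 and 2.91 CPM in WT on the same scale, so for both genes the groups stayed apart. For Ccl5 the groups overlapped on this scale, at 1.94, 4.08 and 2.36 CPM in 5xFAD and 2.08, 1.63 and 0.582 CPM in WT.

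**Figure D3:**
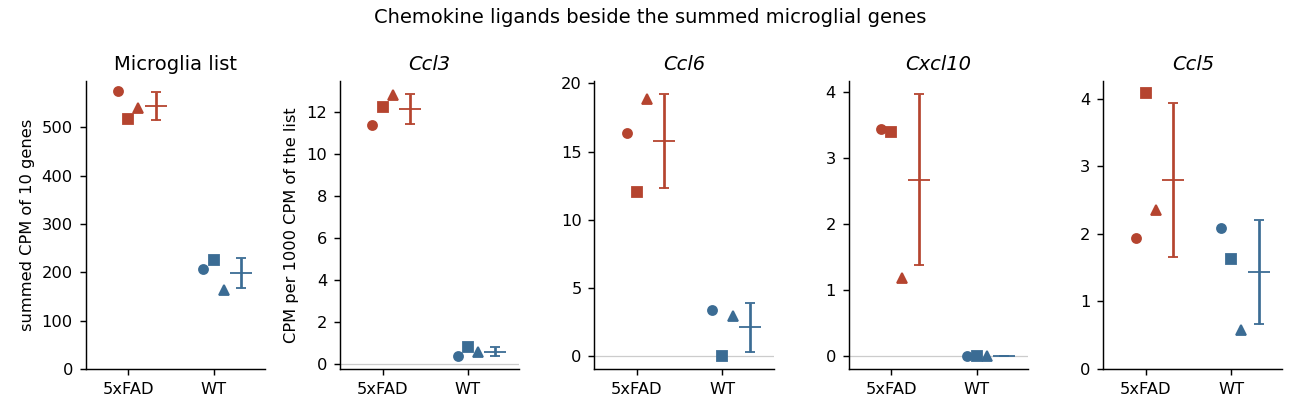
Summed CPM of the 10 microglial genes (left panel) and the CPM of Ccl3, Ccl6, Cxcl10 and Ccl5 per 1000 CPM of that sum, by library, 5xFAD left of WT; marker shape gives the replicate and bars the mean ± SD (n = 3 each). The ratio of Ccl3 was 12.2 ± 0.7 in 5xFAD and 0.605 ± 0.201 in WT.

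Most listed genes of blood-borne cells that make or answer chemokines had few counts. The T and NK cell list summed to 30 counts in the 5xFAD libraries and 13 in the WT libraries over 9 genes, and Cd3e had 2, 0 and 2 counts in 5xFAD and none in WT. The neutrophil list held 33 counts in 5xFAD and 14 in WT, with S100a8 and Ly6g at 0 in every library and Ngp, named after its values were seen, at 17, 10 and 1 counts in 5xFAD and 4, 1 and 0 in WT, and the B cell list 20 in 5xFAD and 9 in WT. Of the monocyte list, Ccr2 was as given above and Plac8 was at 0. Ly6c2 had 3, 2 and 2 counts in 5xFAD and 0, 1 and 0 in WT. The list's sum was 42.8 to 50.3 CPM in 5xFAD and 35.7 to 45.7 CPM in WT. Most of it was Vcan, at a mean of 37.0 CPM in 5xFAD and 37.8 CPM in WT. Cd44 had 59, 108 and 133 counts in 5xFAD and 44, 35 and 59 in WT, without overlap in CPM. Its log2 difference was 1.27 ± 0.35 (adjusted p = 0.297, edgeR quasi-likelihood), and it was called without WT replicate 3 (adjusted p = 0.0105). In 3 of the 7 genes, Cd44, Ly6c2 and F10, 5xFAD lay wholly above WT, against 7.19% of the 17559 genes with any count. F10 had 1 count in each 5xFAD library and none in WT. Border macrophage genes summed to 28.1 to 39.2 CPM in 5xFAD and 30.4 to 40.9 CPM in WT, with overlapping groups. Choroid plexus genes varied between libraries, at 734 to 4348 CPM in 5xFAD and 404 to 2308 CPM in WT, where the lowest was replicate 3 and the next 1265 CPM. The part of these cells, of microglia or of astrocytes in the chemokine values was not tested.

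The genes whose profile over the 6 libraries was most like that of a ligand were found by the root mean squared distance between centred log2 CPM values, as a description that includes WT replicate 3. The search covered only tested genes above a floor on mean level. A prior count of 2 was added before the log, which shrinks the differences of genes with few counts. For Ccl3 the nearest genes were St14, the gene of the serine protease matriptase, at a distance of 0.447, Fam46c, which encodes a poly(A) polymerase, at 0.456, and Itgax, the integrin gene of CD11c, at 0.516. Their log2 differences in the edgeR fit were 3.90, 3.85 and 6.36, against 5.63 for Ccl3. For Cx3cl1 the nearest genes were Nat8l, which makes N-acetylaspartate in neurons, at 0.0194, Zfp316 at 0.0322 and Fosl2, of the AP-1 family, at 0.0335. For Cxcl16 they were Fam212a at 0.312, the kinase gene Nuak2 at 0.319 and the potassium channel gene Kcnk6 at 0.324, at a level where Cxcl16 had 1 to 12 counts per library.

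The promoters of Cxcl10, Ccl3 and Ccl6 are shown because their genes were high in all 5xFAD libraries and because the first differs from the others in the motifs it holds. They run 250 bases before to 50 after the RefSeq start site on GRCm38.p6, all on the minus strand and written 5′ to 3′ along the gene, at chr5:92348840-92349139 for Cxcl10, chr11:83649329-83649628 for Ccl3 and chr11:83593038-83593337 for Ccl6. Capitals mark matches to any of 6 motifs.
Cxcl10: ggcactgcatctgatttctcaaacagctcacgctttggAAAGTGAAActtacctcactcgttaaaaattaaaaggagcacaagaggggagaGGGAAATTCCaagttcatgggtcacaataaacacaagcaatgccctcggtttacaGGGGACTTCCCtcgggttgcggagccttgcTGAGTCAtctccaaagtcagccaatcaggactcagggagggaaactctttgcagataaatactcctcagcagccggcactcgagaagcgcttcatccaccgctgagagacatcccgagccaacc
Ccl3: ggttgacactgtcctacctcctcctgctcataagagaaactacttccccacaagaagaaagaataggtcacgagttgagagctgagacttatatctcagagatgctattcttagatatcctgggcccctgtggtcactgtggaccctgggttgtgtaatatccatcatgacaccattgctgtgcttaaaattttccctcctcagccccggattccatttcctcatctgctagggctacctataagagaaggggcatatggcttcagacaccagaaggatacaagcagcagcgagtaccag
Ccl6: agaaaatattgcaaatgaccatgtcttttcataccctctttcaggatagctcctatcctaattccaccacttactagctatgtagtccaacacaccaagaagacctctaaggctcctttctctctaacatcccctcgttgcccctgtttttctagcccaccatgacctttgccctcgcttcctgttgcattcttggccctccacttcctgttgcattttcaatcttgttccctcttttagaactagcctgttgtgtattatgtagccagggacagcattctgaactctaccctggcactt
The motifs were searched on both strands: the TATA box, spelled TATAAA, the PU.1 motif, spelled GAGGAAGT, the interferon response motif, spelled AAANNGAAA, the AP-1 motif, spelled TGANTCA, the C/EBP motif, spelled TTGCNNAA, and the kappaB consensus. In Cxcl10 the capitals are, in order, an interferon response match at -212 from the start site, kappaB at -159, overlapping kappaB matches at -104 and -103, and AP-1 at -74. The kappaB match at -104 is on the gene's strand and that at -103 is on both strands. Ccl3 and Ccl6 held no match to any of the 6. The interferon response motif was in 10.55% of the 32851 promoters of the RefSeq table, kappaB in 8.46%, AP-1 in 7.81%, TATA in 13.62%, C/EBP in 10.8% and PU.1 in 3.2%. Of the 9 genes, 6 had a promoter in that table, and the other matches were 3 TATA matches on both strands, AP-1 and kappaB in Ccl9 and 1 TATA match each in Ccl12 and Cx3cl1. A match is a description of letters, and no match says only that these letters are not in the window.

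**Figure D4:**
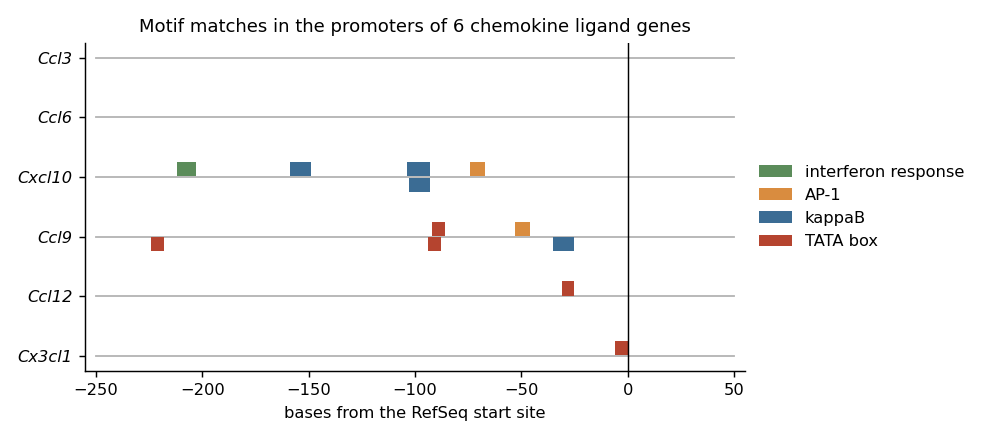
Position of motif matches, in bases from the RefSeq start site, in the promoters of 6 chemokine ligand genes; bars above each line are on the gene's strand and bars below it on the other strand. Cxcl10 holds interferon response, kappaB and AP-1 matches between -212 and -68, and Ccl3 and Ccl6 hold none of the 6 motifs searched.

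**Figure D5:**
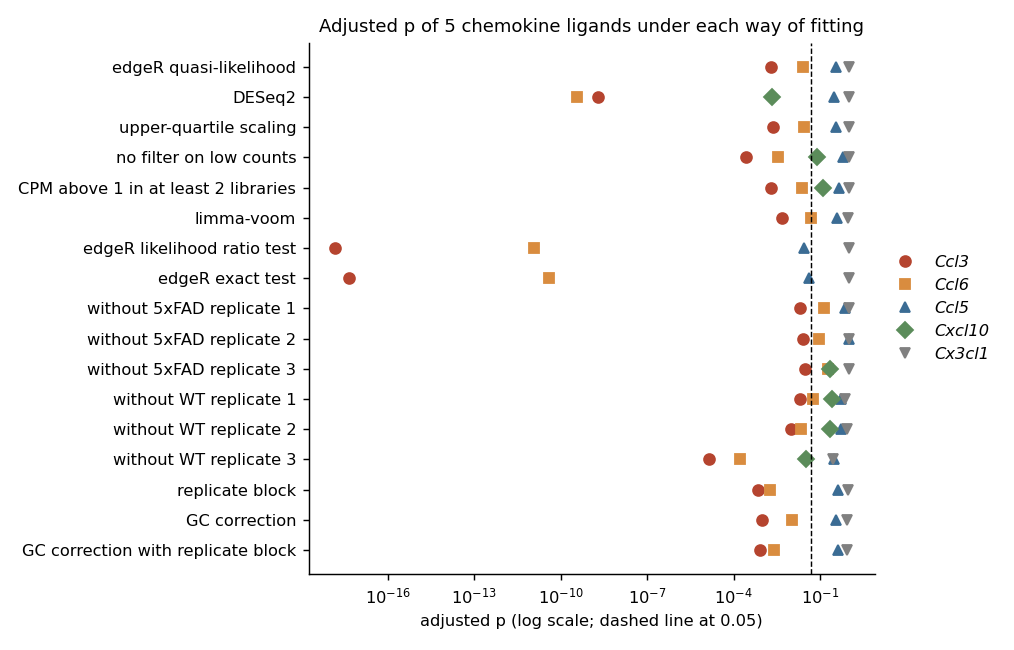
Adjusted p (log axis) of Ccl3, Ccl6, Ccl5, Cxcl10 and Cx3cl1 under each way of fitting, one per row, with the dashed line at 0.05; Cxcl10 appears only in fits where it passed the filter. Ccl3 is left of the line in every row, Ccl6 crosses it when a 5xFAD replicate or WT replicate 1 is left out, and Cxcl10 is left of it with DESeq2 and without WT replicate 3.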

How the data were processed

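Hippocampal RNA depleted of ribosomal RNA was sequenced by the authors in 6 libraries, 3 from 5xFAD and 3 from WT mice of 6 months. Per the labels and the study's methods, the deposited raw counts were made by the authors with HTSeq 0.9.1 from reads that HISAT2 2.0.4 had placed on mm10 after adapter removal (cutadapt 1.9.3); the authors' own comparison used edgeR 3.16.5. The 6 normalized columns and the authors' fold changes and p-values were not used. The sources used here give neither the gene annotation nor the strand setting. The table held 18263 genes, 704 of them without a count. A position in GENCODE M21 was found by gene identifier for 98.73% of genes. Libraries held 8450009 to 12577839 counts.

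The test was edgeR 4.0.16 (quasi-likelihood, TMM scaling, R 4.3.3) on genes kept by its expression filter with a minimum count of 10, comparing 5xFAD with WT over all 6 libraries, with Benjamini-Hochberg adjustment over all 12952 genes tested; a call needed an adjusted p under 0.05. SEs are the log2 difference over the root of the F statistic. Ratios of summed counts have exact 95% binomial intervals, which cover counting error only. Exact permutation of 3 against 3 libraries cannot go below p = 0.1. Scripts were tested on simulated data. Alternatives were DESeq2 1.42.0, limma 3.58.1 (voom), edgeR's other tests, other scaling and filters, a GC correction, the replicate number as a block, and each library left out. The genes named were all members, the receptors Ccr1, Ccr2, Cxcr3, Cxcr6 and Cx3cr1, Adam10 and Adam17, and of each other list the called genes plus up to 4 of smallest p; cell type genes are named where they define a type. Some items that the rule names are not reported here. The members and lists were chosen with earlier results of these data known. Cxcl9, Cxcl5, Ngp, Ctsd, Lpl, Spp1, Cd44, Vcan, F10, Aif1, Fcrls and Slc1a2 were named after their values were seen. Csf1r, Tnf, Il1b and Ifng are named for their low counts, Art3 and Zmynd15 for their overlap with a member.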

Additional observations from a re-analysis of the deposited data

How the results depend on the processing

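Over all genes the number called, 85 in the main fit, was 239 with the likelihood ratio test of edgeR, 229 with the exact test of edgeR, 203 with DESeq2 and 131 with the GC correction and replicate block together, and 15 to 387 when 1 library was left out (387 without WT replicate 3, 15 without 5xFAD replicate 3). The chemokine ligands called, 2 in the main fit, were 1 to 3 when 1 library was left out: 1 when a 5xFAD library or WT replicate 1 was left out, and 3 without WT replicate 3. In the fit without WT replicate 3, 5 ligands passed the filter, against 4 in the main fit, and the added call was Cxcl10. The receptors called, 0 in the main fit, were 1 with DESeq2, 2 with the likelihood ratio test, 2 with the exact test, 1 with the replicate block (Cx3cr1, log2 difference 1.62, adjusted p = 0.0221), 1 with the GC correction and replicate block together, and 0 to 1 when 1 library was left out. The inducers and regulators called, 1 in the main fit, were 7 with DESeq2, 8 with the likelihood ratio test, 8 with the exact test, 2 with the replicate block, 2 with the GC correction, 3 with both, and 0 to 7 when 1 library was left out. For all of these the cause was not tested. Cx3cl1, at a log2 difference of 0.04, turned to -0.16 with the GC correction, -0.15 with the GC correction and replicate block, and ranged over -0.20 (without WT replicate 3) to 0.23 when 1 library was left out, and was called in none. With the replicate number as a block Ccl3 stood at 5.63 (adjusted p = 0.000706) and Ccl6 at 4.54 (adjusted p = 0.00185), and 120 genes were called over the table. The numbers were not taken to pair mice, since the labels say nothing of it and the deviations of same-numbered libraries from their group means correlated at 0.0694 to 0.1772, not all over 0.1. Each library still correlated best with the library of its own number, a hint from the data and not from the design. Besides these and the calls of Ccl5 and Ccl6 described above, the other 94 values of single ligands kept their direction and their side of the threshold, or moved by less than the spread between replicates. At 8450009 to 12577839 counts per library, Ccl2, Ccl9, Ccl12, Cxcl10 and Cxcl16 could not be tested after the filter of the main fit. Of these, Cxcl10 passed the filter in some of the other fits. A ligand with 3 counts in a whole group cannot be told from one with none.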
